A study of Homo sapiens with 6 samples.

Results

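The genes described here encode the respiratory chain and the ATP synthase of the mitochondrial inner membrane. They were chosen by name as protein-coding rows of the count table whose symbol begins with NDUFA, NDUFB, NDUFC, NDUFS, NDUFV, UQCR, COX4, COX5, COX6, COX7, COX8, ATP5, MT-ND, MT-CO, MT-ATP or MT-CYB, together with SDHA, SDHB, SDHC and SDHD. This gave 108 genes of 25349 rows, 16044 of which are protein-coding. Of the 108 genes, 95 lie in the nucleus and 13 on mitochondrial DNA (mtDNA). The rule uses symbols and gene class only.

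Complexes I to IV pass electrons from NADH and succinate to oxygen. Complexes I, III and IV also pump protons, and complex V uses the proton gradient to make ATP. Complex II is built from nuclear genes only, whereas each of the other complexes also needs proteins made inside the mitochondrion from mtDNA. Most genes of mtDNA are read from one strand as a long RNA that is cut into pieces, and MT-ND6 is the only protein gene read from the other strand. Squamous carcinoma cells, like other dividing cells, keep a working respiratory chain beside strong glycolysis.

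The libraries came from SCC-9, an established line of a squamous cell carcinoma of the human tongue. One group (siE7) received siRNA that targets exon 7 of MKI67, which encodes the proliferation marker Ki67, and the other (siNC) a nonspecific siRNA. Both groups were transfected with 10 nM siRNA on day 0 and on day 2 with a Lipofectamine reagent, RNA was taken on day 4, and each group has 3 libraries of polyadenylated RNA. Several siRNAs against exon 7 were used in the study, and the one behind these libraries is not named in the sources used here. Nothing says that the libraries came from separate cultures, so the p-values measure only the spread between these libraries. In bulk RNA, fewer cells of a kind and less RNA per cell cannot be told apart.

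The libraries held 25608192 to 29550264 counts on genes. MKI67 had 1072, 1029 and 1077 counts scaled to library size (CPM) with siNC and 112, 124 and 108 CPM with siE7. All 7 squamous epithelium markers were detected, with a summed level of 22300 to 23630 CPM with siNC and 19020 to 25160 CPM with siE7, and 4 of them fell, while the 5 leukocyte markers summed to at most 0.122 CPM and 3 of them were at 0 in all libraries. The 4 endothelium markers summed to at most 0.492 CPM and the 6 fibroblast markers to at most 24.2 CPM, nearly all of it COL1A1, and neither of the 2 fibroblast markers tested was called. The part of these markers in the results was not tested. Library siE7 replicate 1 stood apart from the other 2 siE7 libraries. The chi-square per degree of freedom between it and siE7 replicates 2 and 3 was 61.1 and 72.7, against 6.22 between replicates 2 and 3 and 5.54 to 6.17 among the siNC libraries. Values without this library are therefore given beside the results, and what set it apart was not tested.

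The sequences at both ends of MT-ND6 are shown because this gene changed most among the 13 protein genes of mtDNA. The first line is read on the plus strand of GRCh38 at chrM:14119-14178, with the end of MT-ND5 in lower case and the abutting end of MT-ND6 in capitals. The second line is read on the minus strand at chrM:14644-14703, with the end of the transfer RNA gene MT-TE in lower case and the first bases of MT-ND6 in capitals.
MT-ND5 and MT-ND6 border: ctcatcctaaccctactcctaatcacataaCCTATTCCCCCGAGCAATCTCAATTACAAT
start of MT-ND6 on its own strand: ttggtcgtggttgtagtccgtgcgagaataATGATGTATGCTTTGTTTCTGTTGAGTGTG
In the GENCODE v44 annotation MT-ND6 takes chrM:14149-14673 on the minus strand, and MT-ND5 takes chrM:12337-14148 on the plus strand. The genes share no base, but RNA read from the plus strand also runs across MT-ND6. The kit kept the strand, and whether the counting used it is not given in the sources used here, so reads from both strands at MT-ND6 may have been counted together.

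With all 6 libraries a smaller share of these genes than of all tested genes was called between siE7 and siNC, and without siE7 replicate 1 the shares were near each other. Among 14661 genes tested by edgeR's quasi-likelihood test, 34.0% were called at a Benjamini-Hochberg adjusted p under 0.05, 18.0% higher and 16.0% lower with siE7. Of the 108 members 105 passed the filter on low counts, and 10 of these rose, 8 fell and 87 were not called, which is 17.1%. NDUFA7, COX4I2 and ATP5MGL were too low to be tested. For 35 of the 105 members the groups did not overlap at all, with siE7 above in 19 and below in 16, and this held for 47.6% of all tested genes. Only MT-ND6 and NDUFA4L2 also passed a log2 fold change beyond 1 and so were differentially expressed genes (DEGs), a call that 12.2% of the tested genes met. The self-test on simulated counts for this comparison recovered 20.9% of changes of 0.5, 62.7% of changes of 1 and 90.9% of changes of 2 on the log2 scale. In the simulation 14461 of the 14661 genes were unchanged, while 34.0% were called in the data. The adjusted cut-off was thus stricter in the simulation, and its spread included siE7 replicate 1. These recovery rates therefore cannot be carried over to the members. Most changes of the members were smaller than 0.5, and how many true changes of this size were missed is not known.

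**Figure D1:**
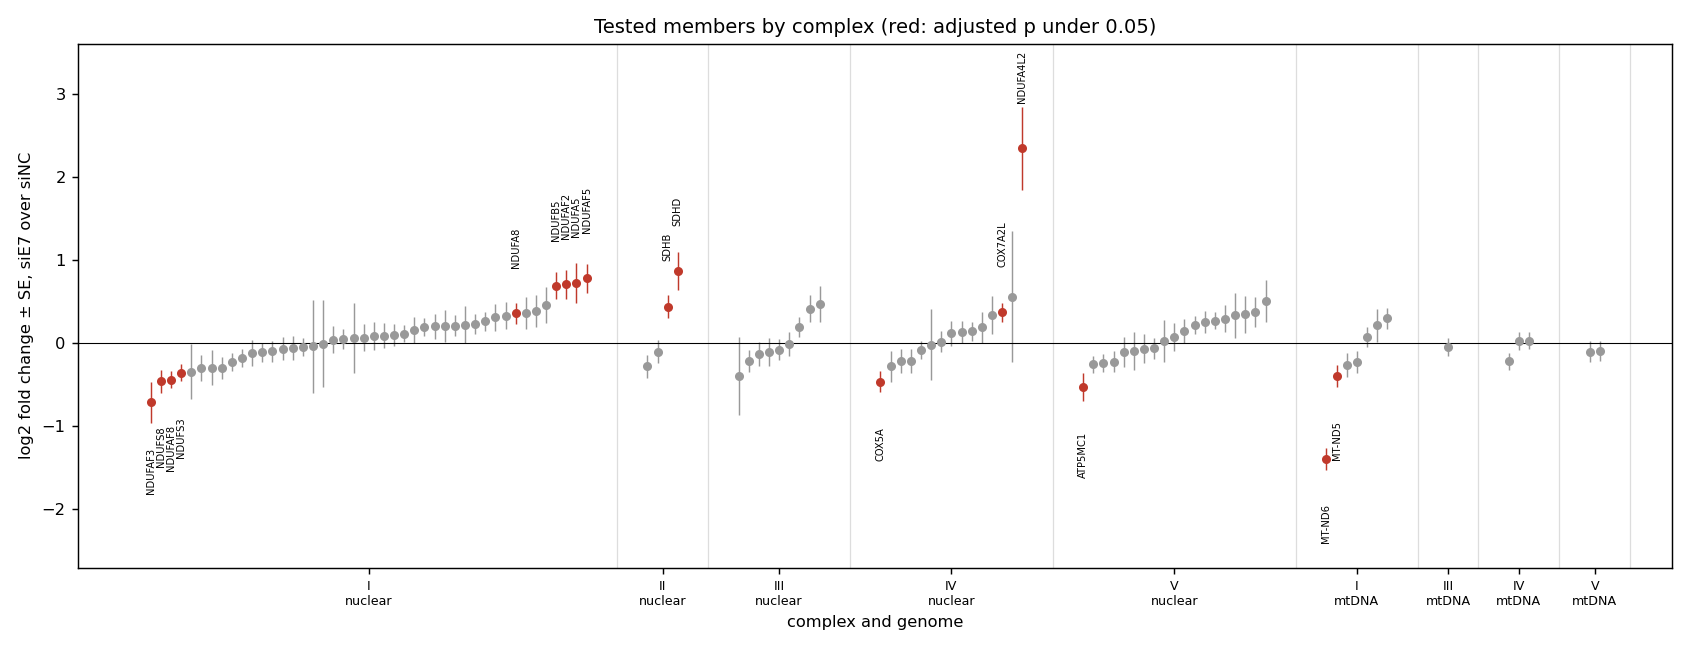
Log2 fold change of siE7 over siNC with its standard error for 104 tested members, sorted within each complex and genome; red points have an adjusted p under 0.05 and carry the symbol. MT-ND6 and NDUFA4L2 lie beyond 1, and 0 of the 9 nuclear genes of complex III are red.

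The 13 protein genes of mtDNA did not move together. MT-ND6 and MT-ND5, both subunits of the membrane arm of complex I, fell, and the other 11 were not called, with a median log2 fold change of -0.09 over the 13 genes beside 0.08 over all tested genes. With library totals as the scaling the median of the 13 genes was 0.07, beside 0.25 over all genes, and MT-ND6 was at -1.23. MT-ND6 was at 294, 229 and 246 CPM with siNC and at 93.3, 112 and 87.3 CPM with siE7. Its level in every siE7 library was thus below every siNC library, at 0.38 times the siNC level. The log2 fold change was -1.40 with a standard error of 0.14 and an adjusted p of 3.1e-05 by edgeR. The exact permutation test (two-sided) of this single gene gave 0.1, which is the smallest p that 3 against 3 libraries allow. Without siE7 replicate 1 the log2 fold change was -1.43, and over the 6 left-out libraries it ran from -1.50 to -1.29. The libraries hold polyadenylated RNA, and whether the capture of MT-ND6 RNA differed between the groups was not tested.

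MT-ND5, the neighbour of MT-ND6, had 2512, 2168 and 2161 CPM with siNC and 1953, 1803 and 1452 CPM with siE7. These groups did not overlap either, and the log2 fold change was -0.39 with a standard error of 0.13 and an adjusted p of 0.035 by edgeR. The call was lost when any siNC library or siE7 replicate 2 or 3 was left out, with values from -0.55 without siE7 replicate 1 to -0.28 without siE7 replicate 3, and also with library totals (-0.23). Over all tested genes 2639 were called higher and 2351 lower with all libraries. Without any siNC library or without siE7 replicate 2 or 3 these numbers were at most 2072 and 1919, so calls were lost among all genes too. The ratio of the 2 genes needs no scaling between libraries. For each 1000 reads on MT-ND5 there were 117, 106 and 114 reads on MT-ND6 with siNC and 47.8, 61.9 and 60.2 with siE7. The fall of MT-ND6 was therefore larger than that of its neighbour in every siE7 library.

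**Figure D2:**
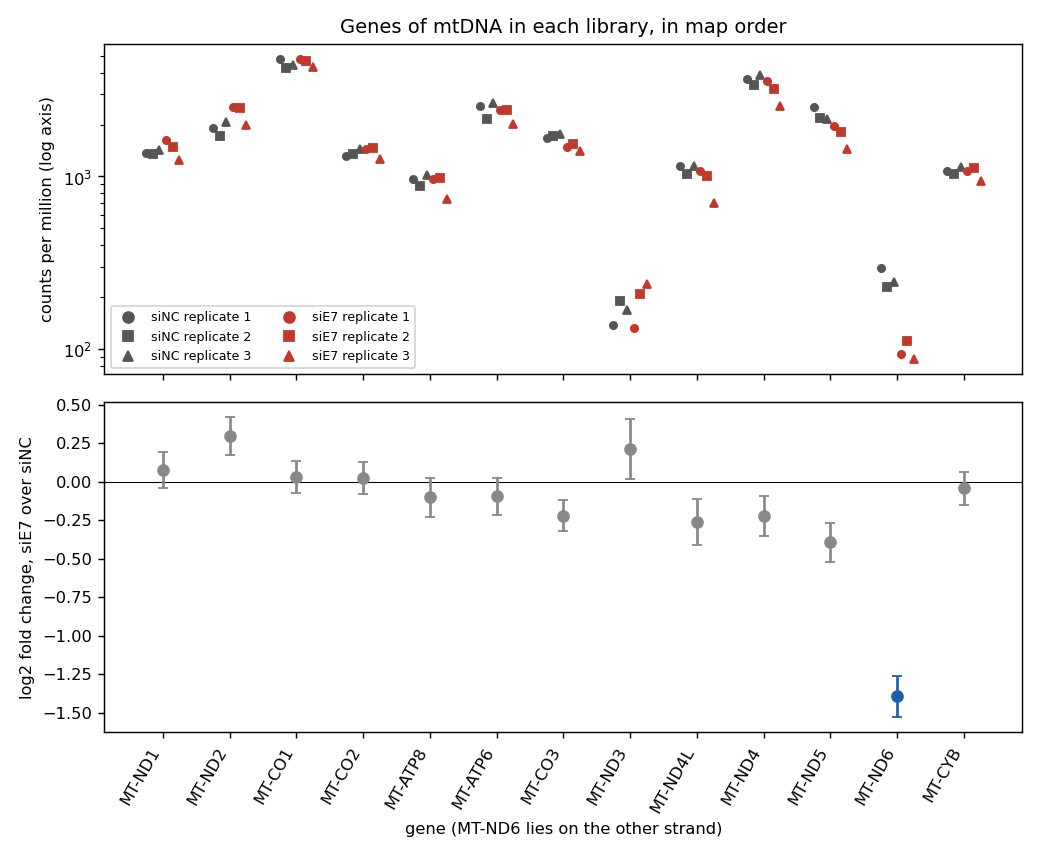
Upper panel: CPM (log axis) of the 13 protein genes of mtDNA in each of the 6 libraries, in their order on the map; lower panel: log2 fold change of siE7 over siNC with its standard error, MT-ND6 in blue. The 3 siE7 libraries of MT-ND6 lie at 87.3 to 112 CPM, below the 3 siNC libraries at 229 to 294 CPM, while for MT-ND1, MT-CO1, MT-CO2 and MT-CYB the groups overlap.

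The remaining mtDNA members differed by less than the test could call. MT-ND2 had the highest log2 fold change of the 13 genes, 0.30, with an adjusted p of 0.082 (0.40 and called without siE7 replicate 3, 0.46 and called with library totals), and its libraries overlapped at 1918, 1719 and 2056 CPM with siNC and 2513, 2491 and 1998 CPM with siE7. MT-CO3, a core subunit of cytochrome c oxidase, had 1662, 1716 and 1770 CPM with siNC and 1482, 1541 and 1396 CPM with siE7. These 2 groups did not overlap, but the log2 fold change of -0.22 had an adjusted p of 0.11. Without siE7 replicate 1 it was -0.29 and was called lower.

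MT-CO1 and MT-CO2, the catalytic subunits of complex IV, had log2 fold changes of 0.03 and 0.02, and MT-CYB, the only mtDNA gene of complex III, -0.04. MT-ATP6 and MT-ATP8 of the ATP synthase were at -0.09 and -0.10. MT-ND1 was at 0.07, MT-ND3 at 0.21, MT-ND4 at -0.22 and MT-ND4L at -0.26. None of these 9 genes was called with all libraries, and without siE7 replicate 1 MT-ND4 was called lower at -0.39. The signs of MT-CO1, MT-CO2, MT-CYB, MT-ATP6, MT-ATP8 and MT-ND1 turned in at least 1 alternative. Per kilobase of transcript, the siNC levels ran from 480 CPM for MT-ND3 and 488 CPM for MT-ND6 to 4633 CPM for MT-ATP8, so the 2 lowest of the 13 protein genes lay near each other in the control. With siE7 MT-ND6 came to 186 CPM per kilobase.

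The share of library counts on mtDNA protein genes was similar in both groups. It was 2.23%, 2.02% and 2.20% with siNC and 2.32%, 2.43% and 2.08% with siE7, so the groups overlapped. MT-ND6 made up 1.25%, 1.07% and 1.05% of the counts on the 13 genes with siNC and 0.404%, 0.495% and 0.460% with siE7. The mitochondrial ribosomal RNAs took 0.201%, 0.206% and 0.171% of counts with siNC and 0.120%, 0.319% and 0.348% with siE7, where siE7 replicate 1 was the lowest and the other 2 siE7 libraries the highest of the 6. These ribosomal RNAs, MT-RNR1 and MT-RNR2, were not called, at log2 fold changes of 0.51 and 0.25 with adjusted p of 0.054 and 0.52.

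Other rows of the mitochondrial chromosome were examined by strand after the value of MT-ND6 was seen. Of the 8 transfer RNA genes on the strand of MT-ND6, 2 had enough counts to be tested. MT-TQ fell, with 52, 39 and 40 counts with siNC and 27, 24 and 26 with siE7, a log2 fold change of -0.97, a standard error of 0.30 and an adjusted p of 0.026 by edgeR. MT-TA had 16, 21 and 10 counts against 13, 9 and 11, at -0.72 (adjusted p = 0.24 by edgeR). On the opposite strand 8 of 14 transfer RNA genes were tested and 2 rose. MT-TM, which lies next to MT-TQ, had 9, 12 and 11 counts with siNC and 52, 52 and 38 with siE7, a log2 fold change of 1.94 with an adjusted p of 0.0018. MT-TL1 had 91, 96 and 101 counts against 212, 191 and 169, at 0.79 with an adjusted p of 0.0079.

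Summed over all transfer RNA genes of the strand of MT-ND6 there were 89, 80 and 65 counts with siNC and 55, 45 and 52 with siE7, and over those of the other strand 506, 487 and 525 against 737, 772 and 710. These sums are raw counts, not scaled to library size. The groups did not overlap on either strand and differed in opposite directions. On the strand of MT-ND6, MT-TQ alone gave 52, 39 and 40 of these counts with siNC and 27, 24 and 26 with siE7. Apart from MT-TM and MT-TL1, the tested rows of the other strand were not called, at log2 fold changes from -0.14 for MT-TW to 0.85 for MT-TR. The sums therefore do not show a shift of every transfer RNA gene of a strand. Whether the counting used the strand is not known here either, so reads of both strands may be mixed. The counts were low, as libraries of this kind capture few transfer RNAs. The pair of neighbours that moved in opposite directions is shown on the plus strand at chrM:4329-4469 (GRCh38), with MT-TQ, which is read from the opposite strand, in capitals and MT-TM and the base before it in lower case.
MT-TQ and MT-TM: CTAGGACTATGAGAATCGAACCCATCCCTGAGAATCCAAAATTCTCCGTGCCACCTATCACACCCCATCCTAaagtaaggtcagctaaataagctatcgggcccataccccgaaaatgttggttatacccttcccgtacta

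The 95 nuclear members took a small and slightly larger share of counts with siE7 in 2 of the 3 libraries. Their share was 0.834%, 0.911% and 0.849% with siNC and 0.883%, 0.983% and 1.06% with siE7. Of the 92 tested, 10 rose, 6 fell and 76 were not called, and their median log2 fold change of 0.07 stood beside 0.08 for all tested genes. The changes went in both directions in complexes I and IV and among the assembly factors, and in complex II both calls were upward. The counts depend on the scaling, because library totals without composition factors moved the median of all genes from 0.08 to 0.25. Under that scaling 24 nuclear members rose and 1 fell, or 27.2% of those tested. Over all 14661 tested genes 4030 then rose and 1632 fell, or 38.6%. The downward calls of NDUFS3, NDUFS8, NDUFAF3, COX5A and ATP5MC1 were lost with library totals. The upward calls of COX7A2L and NDUFA8 were lost with DESeq2, RLE factors, no filter, a replicate block or the length trend removed, that of SDHB with the length trend removed, and the downward call of NDUFAF3 also with upper-quartile factors or at least 10 reads in every library.

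**Figure D3:**
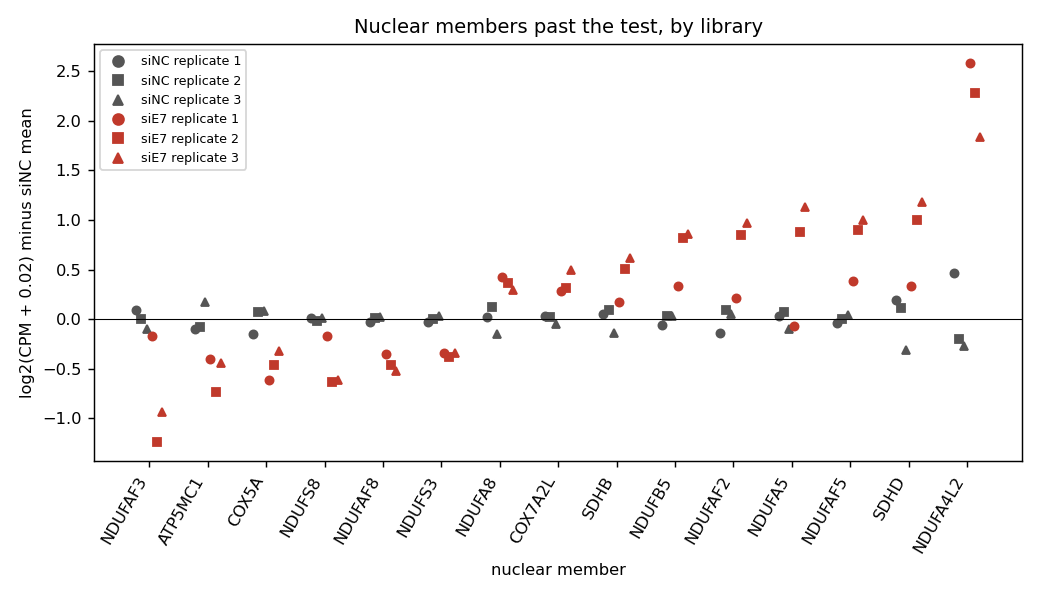
Log2(CPM + 0.02) of each library minus the siNC mean for 15 nuclear members with an adjusted p under 0.05. Circles mark replicate 1; the siE7 circle lies nearer to the siNC points than siE7 replicates 2 and 3 for NDUFAF3, NDUFS8, NDUFAF2 and NDUFA5, and farther from them for NDUFA4L2.

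Complex I, the NADH dehydrogenase, has conserved core subunits, some of which carry its redox centres, and 2 of those described here fell. NDUFS3, in the matrix arm, fell from 130, 133 and 136 CPM to 105, 102 and 105 CPM. The groups did not overlap, and the log2 fold change was -0.35 with a standard error of 0.10 and an adjusted p of 0.019 by edgeR. NDUFS8, which holds iron-sulfur clusters, fell from 50.3, 49.1 and 50.1 CPM to 44.2, 32.2 and 32.5 CPM. Its log2 fold change was -0.46 with an adjusted p of 0.027, and -0.68 without siE7 replicate 1. NDUFV1, which binds NADH, was at -0.30 and was not called, and without siE7 replicate 1 it was called lower at -0.52.

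The accessory subunits surround this core and help to build and hold it. Of 30 accessory subunits 29 were tested, 3 rose and 0 fell, with a median of 0.07. This is 10.3%, beside 34.0% of all tested genes. Without siE7 replicate 1 there were 10 higher and 5 lower, or 51.7%, beside 58.4% of all genes tested in that fit. With library totals 8 were higher and 0 lower, or 27.6%, beside 38.6% of all tested genes. NDUFB5, in the membrane arm, rose from 15.4, 16.4 and 16.4 CPM to 20.3, 28.4 and 29.2 CPM, without overlap, at 0.69 with a standard error of 0.16 and an adjusted p of 0.0067. NDUFA5, in the matrix arm, had 23.4, 24.0 and 21.3 CPM with siNC and 21.8, 42.2 and 50.0 CPM with siE7. Replicate 1 of siE7 lay within the siNC range and the other 2 siE7 libraries were well above it. The log2 fold change of 0.73 (adjusted p = 0.037 by edgeR) became 0.95 without siE7 replicate 1. NDUFA8 rose from 33.5, 35.9 and 29.8 CPM to 44.3, 42.4 and 40.6 CPM, at 0.36 with an adjusted p of 0.041. The calls of NDUFA5, NDUFA8 and NDUFS8 were lost without any siNC library or without siE7 replicate 2 or 3, with log2 fold changes of 0.48 to 0.95, 0.27 to 0.41 and -0.68 to -0.38 over the 6 left-out libraries. The call of NDUFS3 was lost without siNC replicate 1, 2 or 3 or siE7 replicate 2 (-0.42 to -0.34), and that of NDUFB5 in none.

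The complex I assembly factors NDUFAF1 to NDUFAF8 are not part of the finished enzyme. Of the 8, 2 rose and 2 fell, or 50%, beside 34.0% of all tested genes. Without siE7 replicate 1 there were 3 higher and 3 lower, or 75%, beside 58.4% of all genes tested in that fit. NDUFAF5, a hydroxylase that modifies the core subunit NDUFS7, rose from 12.4, 12.8 and 13.1 CPM to 16.7, 23.8 and 25.6 CPM, a fold of 1.72, a log2 fold change of 0.78 with a standard error of 0.17 and an adjusted p of 0.0053 by edgeR. NDUFAF8, which is known to bind NDUFAF5, fell from 527, 542 and 546 CPM to 423, 390 and 375 CPM, at -0.44 with a standard error of 0.10 and an adjusted p of 0.0065. Neither gene's libraries overlapped between groups, so these partners differed in opposite directions.

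NDUFAF2, a relative of the subunit NDUFA12 that sits in its place during assembly, rose from 118, 138 and 134 CPM to 150, 234 and 254 CPM, at 0.71 with an adjusted p of 0.0088. NDUFAF3, an early assembly factor, fell from 12.4, 11.7 and 10.9 CPM to 10.4, 4.93 and 6.08 CPM, at -0.71 with an adjusted p of 0.044. For both, siE7 replicate 1 was the siE7 library nearest to siNC. Without it the log2 fold changes were 0.85 and -1.14. The call of NDUFAF2 was lost without siNC replicate 1 (0.57 to 0.85 over the 6 left-out libraries), and that of NDUFAF3 without any siNC library or without siE7 replicate 2 or 3 (-1.14 to -0.50). The opposite-strand gene DALRD3 covers 11.2% of NDUFAF3 and had 138 counts with siNC and 201 with siE7 on average, beside 296 for NDUFAF3 with siNC.

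Complex II, succinate dehydrogenase, links the chain to the tricarboxylic acid (TCA) cycle. Of its 4 subunits 2 rose and 0 fell, or 50%, beside 34.0% of all tested genes. SDHD, a membrane anchor, had 7.86, 7.41 and 5.53 CPM with siNC and 8.67, 13.7 and 15.6 CPM with siE7. Every siE7 library was above every siNC library, replicate 1 only narrowly, and the fold was 1.83, a log2 fold change of 0.87 with a standard error of 0.23 and an adjusted p of 0.013 by edgeR. SDHB, the iron-sulfur subunit, rose from 40.5, 41.6 and 35.3 CPM to 43.9, 55.6 and 59.8 CPM, at 0.44 with an adjusted p of 0.031. SDHC, the other anchor, was at -0.10 and was not called.

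SDHA, the flavoprotein with the catalytic site, had 537, 539 and 524 CPM with siNC and 549, 395 and 374 CPM with siE7. Replicate 1 of siE7 was the highest of all 6 libraries and siE7 replicates 2 and 3 were the lowest, and the log2 fold change of -0.28 (adjusted p = 0.15 by edgeR) became -0.53 and was called without that library. The call of SDHB was lost without any siNC library or without siE7 replicate 2 or 3 (0.35 to 0.50), and that of SDHD without siNC replicate 3 or siE7 replicate 3 (0.69 to 1.02).

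Complex III, the cytochrome bc1 complex, passes electrons from ubiquinol to cytochrome c. Of its 9 nuclear genes 0 were called by edgeR, beside 34.0% of all tested genes, with 2 at an unadjusted p under 0.05, and DESeq2 called 0 as well. Without siE7 replicate 1, 2 were called, UQCRB higher and UQCRC1 lower, or 22.2%, beside 58.4% of all genes tested in that fit. The median log2 fold change of the 9 was -0.08 and the range -0.40 to 0.47. UQCRB, which binds ubiquinone, had 237, 255 and 241 CPM with siNC and 236, 360 and 380 CPM with siE7, and UQCRC1, a core protein, 489, 530 and 515 CPM against 529, 399 and 394 CPM. In both genes siE7 replicate 1 lay with the siNC libraries and siE7 replicates 2 and 3 lay apart from them on the same side. Cytochrome c itself, CYCS, is outside the name rule. It rose from a mean of 248 CPM to 384 CPM, a log2 fold change of 0.63 with an adjusted p of 0.015, and cytochrome c1, CYC1, was at -0.10 and was not called.

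Complex IV, cytochrome c oxidase, reduces oxygen to water. Of its 16 nuclear genes 15 were tested, 2 rose and 1 fell, or 20%, beside 34.0% of all tested genes. Without siE7 replicate 1 there were 4 higher and 4 lower, or 53.3%, beside 58.4% of all genes tested in that fit. COX5A, a subunit near the matrix side, fell from 52.4, 61.4 and 61.6 CPM to 38.1, 42.3 and 46.7 CPM without overlap, at -0.46 with a standard error of 0.13 and an adjusted p of 0.015. COX7A2L, which takes part in joining complexes III and IV into supercomplexes, rose from 46.1, 46.0 and 43.7 CPM to 55.2, 56.4 and 63.9 CPM, at 0.37 with a standard error of 0.11 and an adjusted p of 0.027. The call of COX5A was lost without siNC replicate 2 or 3 (-0.54 to -0.43), and that of COX7A2L without any siNC library or without siE7 replicate 2 or 3 (0.30 to 0.40).

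Several subunits of complex IV have isoforms used in particular tissues or at low oxygen. NDUFA4L2, the relative of the subunit NDUFA4 that is known to be induced in hypoxia, had 5, 3 and 3 counts with siNC and 28, 21 and 17 counts with siE7, or 0.203, 0.120 and 0.114 CPM against 0.945, 0.761 and 0.556 CPM. The groups did not overlap, and the log2 fold change was 2.34 with a standard error of 0.50 and an adjusted p of 0.0042. It was called without each library in turn (2.09 to 2.64), but its level stayed below 1 CPM. The exact permutation test (two-sided) gave 0.1, the smallest p that this design allows. The gene SHMT2 on the opposite strand covers 3.50% of NDUFA4L2 and had 2949 counts with siNC and 3198 with siE7 on average.

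NDUFA4 itself had 6.56, 8.05 and 7.46 CPM with siNC and 5.03, 6.41 and 6.77 CPM with siE7 and was not called, at -0.28. COX4I1, the general form of subunit 4, had 1044, 1179 and 1085 CPM against 1097, 993 and 1035 CPM, which overlapped, at -0.08. Its relative COX4I2 had a read in 1 library only and could not be tested. COX6B2 and COX7B2, forms known from testis, were low and not called, at -0.02 and 0.56. Per kilobase of transcript COX4I1 had the highest siNC level of the nuclear members, 1445 CPM, followed by NDUFAF8 at 953 CPM and NDUFS5 at 839 CPM.

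Complex V, the ATP synthase, was the complex with the largest number of tested nuclear genes after complex I. Of its 19 genes 18 were tested, 0 rose and 1 fell, or 5.56%, beside 34.0% of all tested genes. Without siE7 replicate 1 there were 7 higher and 5 lower, or 66.7%, beside 58.4% of all genes tested in that fit. ATP5MC1, one of the genes that encode the same subunit of the rotating ring, fell from 11.0, 11.1 and 13.2 CPM to 8.87, 7.07 and 8.67 CPM, at -0.52 with a standard error of 0.17 and an adjusted p of 0.033. The other ring genes were not called, ATP5MC2 at 0.30 and ATP5MC3 at -0.22. Of the catalytic head, ATP5F1A had 171, 175 and 168 CPM against 142, 143 and 147 CPM, at -0.25 with an adjusted p of 0.073, and ATP5F1B was at -0.24. For both, all siE7 libraries were below all siNC libraries without the difference passing the test. Without siE7 replicate 1 both were called lower, at -0.30 and -0.38. The inhibitor ATP5IF1, which blocks the enzyme when it would run backwards, had 272, 335 and 307 CPM against 309, 366 and 418 CPM, at 0.26 with an adjusted p of 0.16. It was called higher with library totals (0.43) and without siE7 replicate 1 (0.30), and was at 0.12 with the length trend removed. The call of ATP5MC1 was lost without any siNC library or without siE7 replicate 2 or 3 (-0.64 to -0.43).

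Leaving out siE7 replicate 1 changed the number of calls more than any other choice. Without it 31 nuclear members rose and 23 fell, and 4 members of mtDNA fell and 0 rose. These 58 of 105 members stand beside 58.4% of 15011 genes called in that fit. All 16 nuclear members called with all libraries were called in the same direction without replicate 1, and 38 more were called. For 19 nuclear members, among them UQCRB, COX6C, NDUFS4, NDUFV2 and ATP5F1C, siE7 replicates 2 and 3 lay above every siNC library and replicate 1 did not. For another 7, SDHA, UQCRC1, NDUFV1, NDUFB7, NDUFB10, ATP5F1D and COX4I1, replicates 2 and 3 lay below every siNC library and replicate 1 did not. By library, 28 nuclear members were above and 36 below all siNC libraries in siE7 replicate 1, 40 and 28 in replicate 2, and 48 and 22 in replicate 3. These counts and the 19 and 7 members above were not made over all tested genes. They therefore cannot be read as particular to the respiratory genes.

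**Figure D4:**
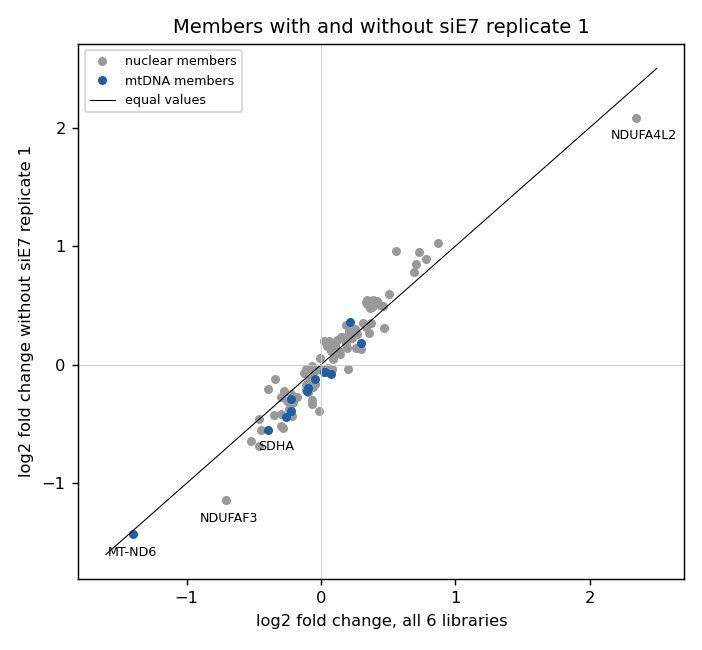
Log2 fold change of siE7 over siNC for the tested members from all 6 libraries (x axis) and without siE7 replicate 1 (y axis), with a line of equal values. MT-ND6 moves from -1.40 to -1.43, SDHA from -0.28 to -0.53 and NDUFAF3 from -0.71 to -1.14.

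Some members are covered by another row of the table on the same strand that held more reads than the member's own row, and how reads on shared positions were assigned is not given in the sources used here. NDUFB8 had a mean of 10 counts with siNC, while the overlapping row RP11-411B6.6 had 5948. NDUFC2 had 15.3 counts and the read-through row NDUFC2-KCTD14, itself among the members, 1807. NDUFA11 had 16.3 counts beside 587 on AC024592.12, ATP5MG 51.7 beside 4487 on RP11-770J1.8, ATP5PO 88.3 beside 363 on AP000304.12, and NDUFA7 0.667 beside 133 on CTD-2550O8.5. The values of these 6 members thus rest on few of the reads at the gene. COX8A had 680 counts beside 879 on AP000721.4 with siNC, and 679 beside 693 with siE7. When overlapping same-strand rows were summed into the member, an alternative chosen after the values were seen, 10 nuclear members rose and 7 fell. In complex IV 2 nuclear genes were then lower, beside 1 in the main test. For 10 of the 13 mtDNA genes the table has rows of copies in the nuclear genome. Adding the reads counted on these copies changed no call among these 10.

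**Figure D5:**
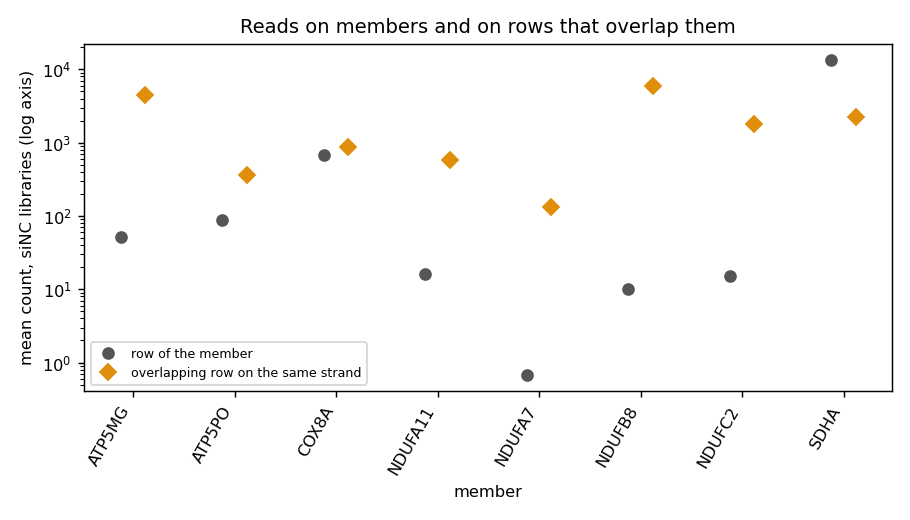
Mean count of the 3 siNC libraries (log axis) on the row of each of 8 members (circles) and on the row that overlaps it on the same strand (diamonds). For ATP5MG, ATP5PO, COX8A, NDUFA11, NDUFA7, NDUFB8 and NDUFC2 the overlapping row holds more reads than the member, and for SDHA it holds fewer.

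Many nuclear respiratory genes are known targets of the transcription factors NRF1, GABP, YY1, ESRRA and SP1, and letters that these factors bind were searched in promoter windows of 250 bases before to 50 bases after the start (RefSeq, GRCh38.p14). Of the 95 nuclear members 76 had a window, with 94 windows in all. On either strand GCGCATGC (NRF1) stood in 17 of the 94 windows, 18.1%, against 3.05% of 35116 windows of all genes. CCGGAAG (GABP) stood in 26.6% against 10.3%, AAGATGGCG (YY1) in 12.8% against 1.75%, TCAAGGTCA (ESRRA) in 1.06% against 0.353% and GGGCGG (SP1) in 62.8% against 45.0%. Of the 10 nuclear members that rose, 7 had a window. By response with all 6 libraries, GCGCATGC stood in a window of 5 of these 7 genes, 0 of 6 that fell and 11 of 62 that were not called, and CCGGAAG in 2, 2 and 19 of them. Without siE7 replicate 1, NDUFS6, which holds GCGCATGC, was called lower at -0.32, and ATP5F1C, ATP5PF and NDUFA6, which also hold it, were called higher. Among the 5 genes, the calls of NDUFA5, NDUFA8 and SDHB were lost without any siNC library or without siE7 replicate 2 or 3. A match of letters is no evidence of binding, and these counts were not tested.

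The stretch from 200 to 51 bases before the start is shown for 2 genes that rose and 1 that fell, with all matches to the 5 sets of letters in capitals. SDHD is read on the plus strand at chr11:112086673-112086822, SDHB on the minus strand at chr1:17054083-17054232 and NDUFS3 on the plus strand at chr11:47578874-47579023.
SDHD promoter: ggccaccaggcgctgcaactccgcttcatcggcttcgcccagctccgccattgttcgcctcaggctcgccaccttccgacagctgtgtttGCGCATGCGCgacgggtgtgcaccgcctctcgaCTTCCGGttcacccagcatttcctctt
SDHB promoter: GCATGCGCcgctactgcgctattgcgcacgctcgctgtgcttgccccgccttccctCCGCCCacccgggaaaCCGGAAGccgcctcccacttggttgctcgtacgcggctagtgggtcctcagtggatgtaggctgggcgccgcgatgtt
NDUFS3 promoter: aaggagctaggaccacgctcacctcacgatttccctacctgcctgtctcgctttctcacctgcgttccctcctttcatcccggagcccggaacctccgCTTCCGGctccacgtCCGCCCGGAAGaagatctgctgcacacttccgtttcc
The 2 genes of complex II hold the NRF1 letters and the GABP letters, and NDUFS3 holds the GABP letters on both strands and no NRF1 letters in this stretch. COX7A2L and NDUFAF2 also rose, are not shown, and hold no NRF1 letters in their windows.

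Genes that serve the chain from outside were counted from lists, with the share called beside 34.0% of all tested genes. The share over all tested genes was 38.6% with library totals and 58.4% without siE7 replicate 1. Of 55 tested assembly factors for complexes I to V beyond NDUFAF1 to NDUFAF8, 7 rose and 3 fell (median 0.16), or 18.2%. With library totals there were 17 higher and 1 lower, and without siE7 replicate 1 there were 18 and 11. FMC1, a factor for the ATP synthase that shares exons with the read-through gene FMC1-LUC7L2, rose from a mean of 5.85 to 16.2 CPM (log2 fold change 1.47, adjusted p = 0.0001 by edgeR), and UQCC1, a factor for complex III, from 20.5 to 35.0 CPM (0.77). Of 22 genes of mtDNA maintenance and transcription 3 rose and 1 fell (median 0.29), or 18.2%. The numbers were 8 and 1 with library totals and 11 and 1 without siE7 replicate 1. MTERF4, known to act in the mitochondrial ribosome's assembly, fell at -0.61, and TOP1MT, a topoisomerase of mtDNA, rose at 0.49. Of 32 genes of mitochondrial RNA processing and decay 3 rose and 1 fell (median 0.15), or 12.5%, with FASTKD5, which processes mitochondrial messenger RNAs, at 0.58 and ANGEL2 at 0.74. With library totals 8 were higher and 0 lower, and without siE7 replicate 1 of 33 tested 11 were higher and 8 lower. Of 78 genes of the mitochondrial ribosome 13 rose and 4 fell (median 0.09), or 21.8%, with MRPL22 at 0.64 and MRPL20 at -0.54. With library totals 27 were higher and 2 lower, and without siE7 replicate 1 the split was 26 and 28.

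The list of 26 genes of the TCA cycle and pyruvate entry had 3 higher and 5 lower (median -0.07), or 30.8%, with 5 and 4 under library totals and 7 and 11 without siE7 replicate 1. MPC1, part of the pyruvate carrier, rose from 21.0 to 45.0 CPM (1.10, adjusted p = 0.0001 by edgeR), and PDHX of the pyruvate dehydrogenase complex rose at 0.82. PC, the pyruvate carboxylase, fell from a mean of 22.1 to 10.2 CPM (-1.11, adjusted p = 0.0005 by edgeR), OGDH of the 2-oxoglutarate dehydrogenase complex fell at -0.65 and CS, the citrate synthase, at -0.62. Among 33 genes of mitochondrial protein import 4 rose and 5 fell (median -0.03), or 27.3%, with TIMM44 at 0.68 and TOMM40, the channel of the outer membrane, at -0.56. Library totals gave 9 higher and 3 lower, and the set without siE7 replicate 1 gave 9 and 13. Among 34 genes of other electron entry, uncoupling and ATP exchange 10 rose and 7 fell (median 0.16), or 50.0%, with 14 and 3 under library totals and 12 and 14 without siE7 replicate 1. COQ7, an enzyme of ubiquinone synthesis, rose at 0.77, and ETFDH, which feeds electrons from fatty acid oxidation into ubiquinone, rose from 2.73 to 6.01 CPM (1.14). Of 20 nuclear regulators of respiratory genes 2 rose and 2 fell (median -0.05), or 20%, with 3 and 1 under library totals and 5 and 11 without siE7 replicate 1. NRIP1, a corepressor, fell at -0.94. PERM1 was called higher, but it had reads in only 1 siNC library, at 0.120 CPM, and was at 0.439, 0.543 and 0.360 CPM with siE7, so no fold is given.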

How the data were processed

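RNA-seq of 6 SCC-9 libraries, 3 siE7 and 3 siNC, was used. The authors deposited counts of reads on each of 25349 genes, as whole numbers without normalization. The submitters' processing notes name HISAT2, DESeq2 and GRCh38. Of these genes, 14661 passed filterByExpr in edgeR 4.0.16 under R 4.3.3. After TMM scaling, the groups were tested by the robust quasi-likelihood F-test of edgeR with Benjamini-Hochberg adjustment, and levels are TMM-scaled CPM. A DEG had an adjusted p under 0.05 and a log2 fold change beyond 1. The depth of 25608192 to 29550264 counts limits precision for low genes. The test was checked on simulated data. Alternatives were DESeq2 1.42.0, other scalings and filters, a replicate block, removal of GC or length trends, and each library left out. Positions come from GENCODE v44, which matched 25283 identifiers. Python 3.11.15, pandas 2.3.3 and matplotlib 3.10.9 made tables and figures. Members and lists were chosen with earlier results of these data known. Named genes were MKI67, all mtDNA members, members past both thresholds, the 2 called genes with the smallest p in each direction per complex and among assembly factors, isoform pairs, ATP5IF1, CYC1, CYCS and the 2 called genes with the smallest p per list. Other genes were named after their values were seen. The values of 1 member are not reported here.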

Additional observations from a re-analysis of the deposited data

How the results depend on the processing

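The main test called 10 nuclear members higher, 6 lower, 0 mtDNA members higher and 2 lower. With library totals the numbers were 24, 1, 1 and 1, with 10 subunits of complex I, 3 of III and 3 of V called. Over all tested genes 38.6% were called with library totals and 34.0% in the main test. Nuclear members lower numbered 14 with the GC trend removed, 10 with the length trend removed and 13 with a replicate block and the GC trend removed. Over all 14645 genes tested in these fits 3711, 2558 and 3698 were lower, beside 2351 of 14661 in the main test. Higher were 3513, 2344 and 3462, beside 2639. Complex III had 1 call without the filter, with the replicate block and with the length trend removed, and 2 with the GC trend removed with or without the replicate block. Complex V had 2 calls with DESeq2, upper-quartile factors, at least 10 reads in every library or the length trend removed, 4 with the GC trend removed with or without the replicate block, and complex II had 1 with the length trend removed. No pairing by replicate number was seen, with correlations of -0.05 to 0.06 between deviations of same-numbered and other libraries. The deviations were taken from the mean of each group of 3 libraries, so these values cannot exclude a pairing. With the replicate block 9 nuclear members were higher and 6 lower. Over the 6 left-out libraries, nuclear members higher ranged from 4 to 31, lower from 1 to 23, mtDNA members higher from 0 to 1 and lower from 1 to 4. Over the same libraries the calls ranged from 1 to 22 in complex I, 0 to 3 in complex II, 0 to 2 in complex III, 1 to 8 in complex IV, 0 to 12 in complex V and 2 to 6 among the assembly factors. Over all tested genes the same fits called 1598 to 4343 higher and 1552 to 4422 lower, beside 2639 and 2351 in the main test. These ranges therefore cannot be read as particular to the respiratory genes. Every upper end is the set without siE7 replicate 1, apart from mtDNA members higher, which is without siE7 replicate 3. The log2 fold change turned positive with library totals for COX4I1 (0.085), UQCRH (0.049), SDHC (0.067), MT-CYB (0.12), MT-ATP6 (0.071), MT-ATP8 (0.064) and COX6B2 (0.14). It turned negative for MT-CO1 and MT-CO2 with DESeq2 (-0.025 and -0.032), RLE factors (-0.016 and -0.023), the GC trend removed (-0.021 and -0.029), the length trend removed (-0.11 and -0.10) and the replicate block with the GC trend removed (-0.025 and -0.035), and for MT-ND1 with the length trend removed (-0.054). That of COX6B2 was 0.0092 with upper-quartile factors and 0.0047 with at least 10 reads in every library. Over the left-out libraries the values ran from -0.077 to 0.17 for MT-ND1, -0.059 to 0.075 for MT-CO1 and -0.061 to 0.089 for MT-CO2, each lowest without siE7 replicate 1, and from -0.12 to 0.026 for MT-CYB, -0.22 to 0.017 for MT-ATP8 and -0.39 to 0.23 for COX6B2, each highest without siE7 replicate 3. MT-ND6, NDUFA4L2, NDUFAF5, NDUFAF8 and NDUFB5 were called in every alternative run. With at least 10 reads in every library NDUFA4L2 was not tested. The cause of these shifts was not tested.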
